A study of Bos taurus with 16 samples.

Results

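C11H2orf40, EMB, IL1RAPL2 and KLHL31 are 4 of the 36824 gene entries counted by RNA-seq in follicular cells of cattle (Bos taurus). They were picked by name because they stood higher in cumulus than in granulosa libraries, so that difference is described below and not tested. The products are a secreted peptide precursor (C11H2orf40, current symbol ECRG4), a pair of single-pass membrane proteins (EMB and IL1RAPL2) and a BTB-kelch protein (KLHL31), which is known as neither secreted nor a membrane protein. All 4 passed the filter on low counts, as did 18038 entries in the fit over all libraries.

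Cumulus cells form the cell layers that travel with the oocyte, and mural granulosa cells line the wall of the same follicle. Cumulus cells are known for feeding the oocyte, for instance with pyruvate that it cannot make well from glucose, and they exchange signals with it through contacts and secreted factors. Follicles were sampled by ovum pick-up, in which follicular fluid is aspirated, either on the ovary bearing the corpus luteum (ipsilateral) or on the opposite ovary (contralateral). The series' title names closeness to this progesterone-secreting gland as the question. No other treatment, genotype, breed or age is given in the labels.

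The 16 libraries fall into 4 groups of 4, with both cell types from the ipsilateral and from the contralateral ovary. Per the design text a pool combined 3 animals, and nothing says whether pools of different groups shared animals. The p-values therefore measure the spread between these pools. Totals ran from 10066844 to 21910233 counts per library. The cell labels could not be checked on independently chosen cumulus or granulosa genes, since most entries carry Ensembl identifiers without names. Those found for these cell types were taken up with earlier results of these data known. Their levels therefore describe the libraries and check no label. Of 10 granulosa genes listed, the 4 found (TIMP1, A2M, LYG1, FXYD3, taken up with earlier results known) summed to between 18.8 and 107 CPM in cumulus and between 1813 and 3322 CPM in granulosa libraries. CPM is the usual unit of counts scaled to the library total. Of 6 cumulus genes listed, only HYDIN, also taken up with earlier results known, was found, at 56.9 to 93.5 CPM in cumulus and 0.315 to 8.85 CPM in granulosa libraries. Cumulus markers such as PTX3 and HAS2 and granulosa markers such as FSHR and CYP19A1 were not analysed here. The 2 oocyte genes found (BCL2L10 and H1FOO) summed to at most 1.41 CPM in the ipsilateral cumulus libraries and reached 215 CPM in a contralateral one. The platelet gene PF4, the only leukocyte gene found, reached 0.2503 CPM in cumulus and 3.68 CPM in granulosa libraries. The surface epithelium gene MUC16 reached 2.15 and 42.1 CPM. No listed gene of theca, endothelium or red cells was matched.

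C11H2orf40 encodes augurin, which is made as a precursor, cut by proteases and released, and which is best known from the choroid plexus. After scaling with TMM factors its level in ipsilateral cumulus libraries 1 to 4 was 1057, 1141, 783 and 714 CPM. In contralateral cumulus libraries 1 to 4 it was 1477, 880, 1239 and 1040 CPM. The ranges of the sides overlap, and the contralateral side held the highest single library. In ipsilateral granulosa libraries 1 to 4 the gene stood at 10.95, 99.9, 18.2 and 198 CPM. In contralateral granulosa libraries 1 to 4 it stood at 29.7, 65.7, 134 and 173 CPM. Granulosa libraries thus spread 18.0-fold from lowest to highest, where cumulus libraries spread 2.07-fold. The means were 1042 ± 250 CPM in cumulus and 91.1 ± 71.8 CPM in granulosa libraries (SD, n = 8 each). The fitted ratio was 11.3-fold on the ipsilateral and 11.5-fold on the contralateral side.

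EMB encodes embigin, an immunoglobulin-type glycoprotein that accompanies monocarboxylate transporters, the carriers of lactate and pyruvate, to the plasma membrane. It stood at 147, 132, 146 and 168 CPM in ipsilateral cumulus libraries 1 to 4. Contralateral cumulus libraries 1 to 4 held 166, 149, 164 and 134 CPM. This was the most even of the members in cumulus cells, with a coefficient of variation of 10.1% on the ipsilateral and 9.73% on the contralateral side. The median over all entries with at least 20 mean counts was 14.9% and 17.5%. In granulosa cells EMB had 47.6% on the ipsilateral and 80.4% on the contralateral side, where these medians were 23.0% and 19.3%. Ipsilateral granulosa libraries 1 to 4 held EMB at 7.45, 15.1, 27.1 and 18.7 CPM. Contralateral granulosa libraries 1 to 4 held it at 9.39, 7.62, 30.2 and 7.61 CPM. Library 3 was the highest granulosa library on either side. The fitted ratio of cumulus to granulosa cells was 8.67-fold on the ipsilateral and 11.1-fold on the contralateral side.

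IL1RAPL2 encodes a receptor-like protein of the interleukin-1 receptor family that is best known from the nervous system. Ipsilateral cumulus libraries 1 to 4 held 83.9, 81.0, 65.8 and 132 CPM. Contralateral cumulus libraries 1 to 4 held 51.6, 88.5, 57.0 and 53.9 CPM. Contralateral library 2 lay above 3 of the 4 ipsilateral libraries, and the other contralateral libraries lay below all of them. In ipsilateral granulosa libraries 1 to 4 the values were 1.75, 19.3, 2.89 and 19.6 CPM. In contralateral granulosa libraries 1 to 4 they were 7.81, 6.35, 4.86 and 13.8 CPM. The ipsilateral granulosa libraries split into a pair at 19.3 and 19.6 CPM and a pair at 1.75 and 2.89 CPM, with all contralateral libraries in between. Cumulus to granulosa ratios were 8.26-fold and 7.67-fold on the ipsilateral and contralateral sides. In the reference table the gene overlaps TEX13A and 4 pseudogenes, and the library kits do not keep strand, so reads of such overlaps cannot be assigned with certainty.

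KLHL31 encodes a BTB-kelch protein, a class that often hands substrates to the ubiquitin ligase scaffold CUL3, and it is known mainly from skeletal muscle. Its level was 26.5, 31.6, 21.1 and 27.7 CPM in ipsilateral cumulus libraries 1 to 4. In contralateral cumulus libraries 1 to 4 it was 33.9, 25.6, 35.9 and 30.4 CPM. Again the sides overlap. Ipsilateral granulosa libraries 1 to 4 held 0.648, 4.32, 0.834 and 1.93 CPM, and the lowest of these rests on 10 counts. Contralateral granulosa libraries 1 to 4 held 1.90, 1.96, 4.91 and 7.86 CPM. The fitted ratio was 13.8-fold on the ipsilateral and 7.47-fold on the contralateral side, the widest gap between sides among the 4 members.

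**Figure D1:**
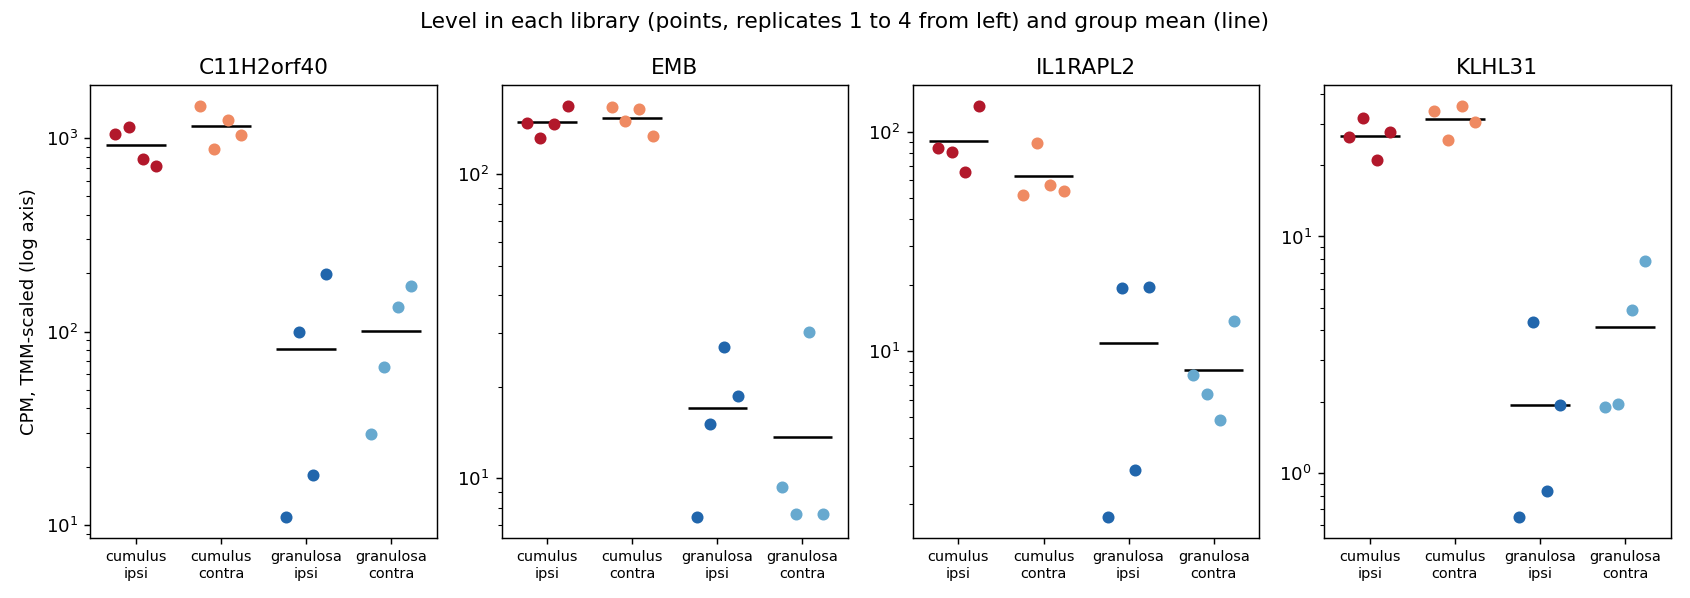
CPM of each member on a log axis by group, 1 point per library and the group mean as a line. For every member the 8 cumulus libraries sit above the 8 granulosa libraries, and the ipsilateral and contralateral libraries of a cell type overlap.

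For each of the 4 members no granulosa library reached the lowest cumulus library, which held for 13.5% of all 18038 entries. By edgeR, 29.9% of entries were called higher in cumulus cells, and 2.54% were called and at least 8-fold higher. The members were chosen on this contrast, so nothing is read from these shares. The lowest cumulus library exceeded the highest granulosa library 3.62-fold for C11H2orf40, 4.37-fold for EMB, 2.63-fold for IL1RAPL2 and 2.69-fold for KLHL31. Over both sides the fitted ratio was 11.4-fold for C11H2orf40, 10.1-fold for KLHL31, 9.80-fold for EMB and 7.96-fold for IL1RAPL2. IL1RAPL2 was thus not among the entries at least 8-fold higher. In such bulk pools fewer cells of a type and less RNA per cell cannot be told apart. Levels are not compared between genes, because no transcript lengths were used.

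Within granulosa cells the members did not share 1 order of libraries. Given as a percentage of its own cumulus mean, C11H2orf40 ran from 1.05% in ipsilateral library 1 to 19.0% in ipsilateral library 4. EMB ran from 4.94% in ipsilateral library 1 to 20.001% in contralateral library 3. IL1RAPL2 ran from 2.28% in ipsilateral library 1 to 25.6% in ipsilateral library 4, and KLHL31 from 2.23% in ipsilateral library 1 to 27.0% in contralateral library 4. Ipsilateral library 1 was thus the lowest for each member. HYDIN, a cilium gene that is higher in cumulus cells, was also lowest there, at 0.482%, and highest in ipsilateral library 4, at 12.98%. Over the 458 entries called at least 8-fold higher in cumulus cells, the median percentage ran from 0.427% in ipsilateral library 1 to 11.97% in ipsilateral library 2. The part of admixed cumulus cells in these granulosa values was not tested. EMB stood apart in ipsilateral library 3, where it reached 17.9% while C11H2orf40, IL1RAPL2 and KLHL31 were at 1.75%, 3.76% and 2.87% and HYDIN at 1.15%.

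**Figure D2:**
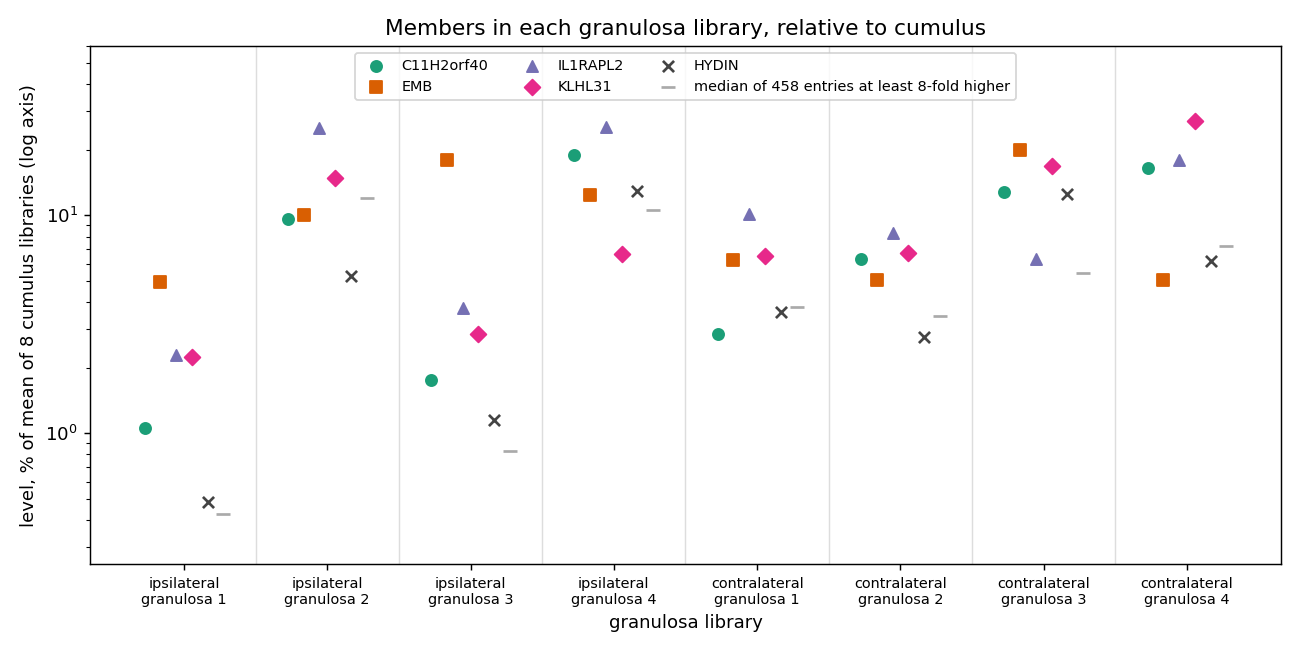
Level of each member in the 8 granulosa libraries, as a percentage of its mean over the 8 cumulus libraries on a log axis, beside HYDIN and the median of 458 entries at least 8-fold higher in cumulus cells. Ipsilateral library 1 is lowest throughout, and EMB (squares) is far above the other members in ipsilateral library 3.

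The side of the corpus luteum was not used to choose the members, so it was tested. In cumulus cells IL1RAPL2 stood higher on the ipsilateral side, at 90.6 ± 28.5 against 62.8 ± 17.3 CPM (SD, n = 4 each). Its log2 fold change, ipsilateral over contralateral, was 0.52 ± 0.23 (SE, as for those that follow). C11H2orf40 stood lower, at 924 ± 207 against 1159 ± 258 CPM (-0.33 ± 0.19), and so did KLHL31, at 26.7 ± 4.34 against 31.4 ± 4.49 CPM (-0.24 ± 0.15). EMB stood at 148 ± 14.9 and 153 ± 14.9 CPM (-0.053 ± 0.099). None of the 4 passed edgeR's quasi-likelihood test, with adjusted p values of 0.455 for IL1RAPL2, 0.524 for C11H2orf40, 0.577 for KLHL31 and 0.877 for EMB.

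Over all 16323 entries tested in cumulus cells that test called 0, or 0%, while 1791 (11%) had an unadjusted p under 0.05. With all libraries, only IL1RAPL2 among the members was under it, at an unadjusted p of 0.0496 by edgeR, and 685 entries (4.2%) were under it with a higher and 6.78% with a lower ipsilateral level. DESeq2 called 120 entries and limma-voom 0, and no member was among them. The exact two-sided permutation test on log2 CPM, whose smallest possible p is 0.0286, gave 0.114 for IL1RAPL2, 0.200 for C11H2orf40, 0.229 for KLHL31 and 0.571 for EMB. The 95% intervals of the log2 fold change ran from 0.0012 to 1.04 for IL1RAPL2 and from -0.74 to 0.078 for C11H2orf40. They ran from -0.58 to 0.099 for KLHL31 and from -0.27 to 0.16 for EMB. Without ipsilateral library 4, its highest library, IL1RAPL2 had a log2 fold change of 0.29 (unadjusted p = 0.162), and without contralateral library 2 it had 0.74 (unadjusted p = 0.0044, adjusted p = 0.147), both by edgeR. Leaving out 1 library gave C11H2orf40 values from -0.45 without ipsilateral library 2 (unadjusted p = 0.0389 by edgeR) to -0.19 without contralateral library 1. Without contralateral library 2 it had -0.44 (unadjusted p = 0.0302 by edgeR). KLHL31 ran from -0.33 without ipsilateral library 2 to -0.14 without ipsilateral library 3.

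In granulosa cells none of the side differences passed. KLHL31 stood at 1.94 ± 1.69 CPM on the ipsilateral and 4.16 ± 2.84 CPM on the contralateral side (SD, n = 4 each). Its log2 fold change was -1.11 ± 0.68 (SE). C11H2orf40 stood at 81.7 ± 87.2 against 101 ± 64.7 CPM (-0.31 ± 0.97). EMB stood at 17.1 ± 8.14 against 13.7 ± 11.02 CPM (0.30 ± 0.53), and IL1RAPL2 at 10.9 ± 9.92 against 8.20 ± 3.90 CPM (0.41 ± 0.72). Each had an adjusted p of 0.9996 by edgeR. The test called 0 of 16411 entries (0%), and 579 entries (3.53%, of which 1.4% higher and 2.13% lower on the ipsilateral side as shares of all entries), no member among them, had an unadjusted p under 0.05. DESeq2 called 1 entry and limma-voom 0. The exact two-sided permutation test gave 0.171 for KLHL31, 0.457 for C11H2orf40, 0.571 for EMB and 0.886 for IL1RAPL2. For IL1RAPL2 the difference of mean log2 CPM was -0.18, opposite in sign to the fitted value.

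The granulosa intervals were wide, from -2.62 to 0.40 for KLHL31, -2.61 to 1.98 for C11H2orf40, -0.88 to 1.48 for EMB and -1.22 to 2.04 for IL1RAPL2. Single libraries moved these values. Without contralateral library 3, EMB had a log2 fold change of 1.07 (unadjusted p = 0.0229 by edgeR), and without ipsilateral library 3 it had -0.014. Without ipsilateral library 2, KLHL31 had -1.86 (unadjusted p = 0.0206 by edgeR), and without contralateral library 4 it had -0.60. For 0 of the 4 members were the sides without overlap in either cell type. They were for 5.19% of entries in cumulus and 2.25% in granulosa cells.

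Whether the side mattered differently in the 2 cell types was tested as the cumulus minus the granulosa side difference. This also tests whether the cumulus to granulosa ratio differs between sides. KLHL31 had 0.88 ± 0.68 SE, EMB -0.35 ± 0.57, IL1RAPL2 0.11 ± 0.83 and C11H2orf40 -0.028 ± 1.02 on the log2 scale. No member passed, with adjusted p values by edgeR from 0.797 for KLHL31 to 0.9995 for C11H2orf40. Of 18038 entries 0 passed (0%), and 1358 (7.53%, with 3.05% above and 4.48% below 0), no member among them, had an unadjusted p under 0.05. DESeq2 called 1 entry and limma-voom 0. The interval of KLHL31 ran from -0.57 to 2.33 and that of C11H2orf40 from -2.22 to 2.16. Without contralateral granulosa library 3, EMB had -1.11 (unadjusted p = 0.0104, adjusted p = 0.489 by edgeR), and without ipsilateral granulosa library 3 it had -0.046. Without ipsilateral granulosa library 2, KLHL31 had 1.61 (unadjusted p = 0.0167, adjusted p = 0.562 by edgeR), and without contralateral granulosa library 4 it had 0.38.

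**Figure D3:**
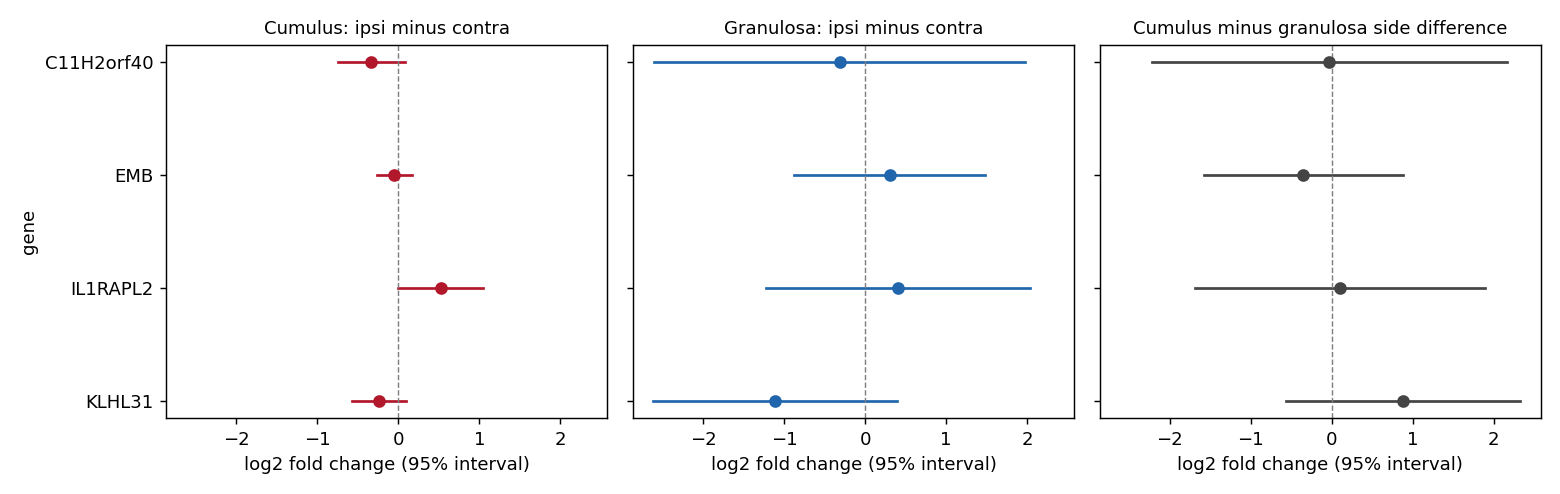
Log2 fold change with 95% interval for the side difference (ipsilateral minus contralateral) in cumulus cells, in granulosa cells, and for the difference between them. Intervals in cumulus cells are narrower than in granulosa cells for each member, and only that of IL1RAPL2 in cumulus cells, from 0.0012 to 1.04, does not reach 0.

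By level, C11H2orf40 and KLHL31 had the same order of groups. Contralateral cumulus was highest, followed by ipsilateral cumulus, contralateral granulosa and ipsilateral granulosa. EMB had contralateral cumulus, ipsilateral cumulus, ipsilateral granulosa and contralateral granulosa. IL1RAPL2 began with ipsilateral cumulus, followed by contralateral cumulus, ipsilateral granulosa and contralateral granulosa. In each order the neighbours of 1 cell type overlapped in range. That cumulus groups come first follows from the choice of members, and the order of sides rests on side differences of which none passed.

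Relations among the members were computed within each cell type over its 8 libraries, on log2 CPM, which gave 12 relations. In granulosa cells C11H2orf40 rose and fell with KLHL31 (Pearson r = 0.834, exact permutation p = 0.0118, Spearman rho = 0.762, exact p = 0.0368) and with IL1RAPL2 (r = 0.820, exact permutation p = 0.0156, rho = 0.786, exact p = 0.0279). Both had an adjusted p of 0.0901 for r over the 12 relations by the exact permutation test, which does not pass. Without the 2 libraries farthest from the median of C11H2orf40, r was 0.519 with KLHL31 and 0.437 with IL1RAPL2, so these relations rest in part on ipsilateral libraries 1 and 3. Without ipsilateral library 4, r with KLHL31 was 0.971 (exact permutation p = 5.95e-04, adjusted p = 0.0071). IL1RAPL2 and KLHL31 had r = 0.679 (exact permutation p = 0.0666, adjusted p = 0.160). For EMB r was lower in granulosa cells, at 0.197 to C11H2orf40, 0.032 to KLHL31 and -0.0038 to IL1RAPL2 (exact permutation p of 0.630, 0.936 and 0.993). Its r with IL1RAPL2 was 0.702 without the 2 libraries farthest from the median of EMB.

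In cumulus cells, where levels varied less, C11H2orf40 again went with KLHL31 (r = 0.779, exact permutation p = 0.0225, rho = 0.786, exact p = 0.0279, adjusted p = 0.0901 for r). Without the 2 libraries farthest from the median r was 0.947. C11H2orf40 and IL1RAPL2 had opposite signs here (r = -0.706, exact permutation p = 0.0494, rho = -0.667, exact p = 0.0831, adjusted p = 0.148 for r). Without the 2 farthest libraries this r was -0.225, and of the deviations from the side means it was -0.583. IL1RAPL2 was highest in ipsilateral library 4, where C11H2orf40 was lowest, and lowest in contralateral library 1, where C11H2orf40 was highest. Whether the relation of this pair differs between cell types was not tested.

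**Figure D4:**
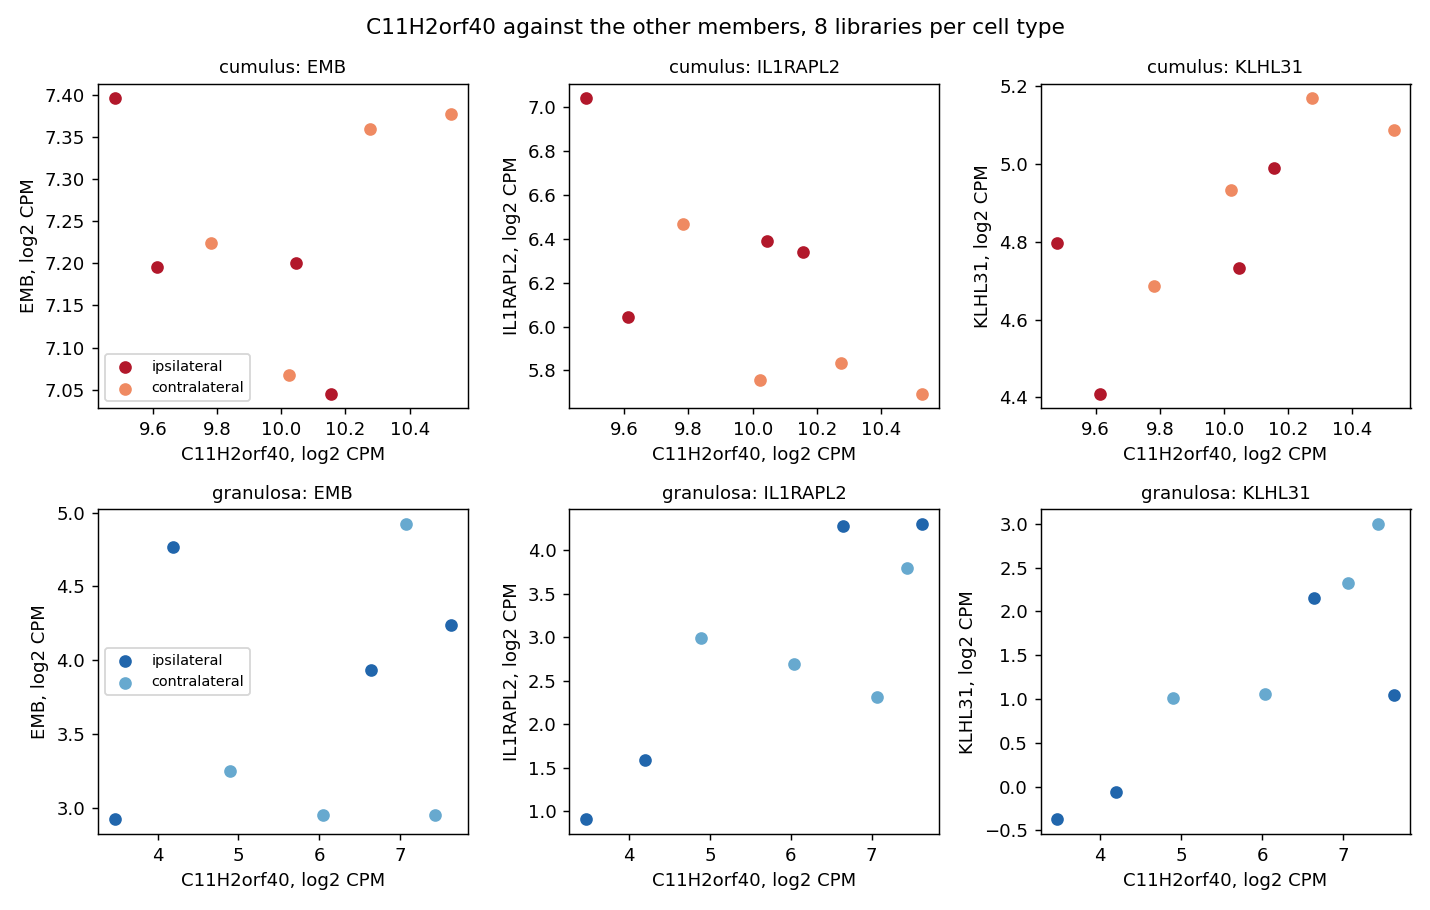
Log2 CPM of C11H2orf40 against EMB, IL1RAPL2 and KLHL31 in the 8 cumulus libraries (top) and the 8 granulosa libraries (bottom), 1 point per library. KLHL31 had r of 0.779 with C11H2orf40 in cumulus and 0.834 in granulosa cells, IL1RAPL2 -0.706 and 0.820, and EMB 0.025 and 0.197. None passed, the smallest adjusted p being 0.0901 by the exact permutation test. Without the 2 libraries farthest from the median of C11H2orf40, r of KLHL31 was 0.947 and 0.519. That of IL1RAPL2 was then -0.225 and 0.437.

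A further 24 relations, added after the values had been seen, set the members against HYDIN, TIMP1 and the library total. HYDIN and C11H2orf40 were related in granulosa cells (r = 0.930, exact permutation p = 6.94e-04, rho = 0.952, adjusted p = 0.0167 over the 24). Without the 2 farthest libraries r was 0.757, and without 1 of ipsilateral granulosa libraries 1, 2 and 3 the adjusted p rose to between 0.0810 and 0.124 by the exact permutation test. In cumulus cells r for this pair was -0.448 (exact permutation p = 0.266). Both genes were higher in cumulus cells, and the part of admixed cumulus cells in their granulosa relation was not tested. TIMP1, the granulosa-high protease inhibitor gene, ran opposite to C11H2orf40 in granulosa cells (r = -0.862, exact permutation p = 0.0071, adjusted p = 0.0851). In cumulus cells the sign was the opposite (r = 0.694, exact permutation p = 0.0480, rho = 0.714, adjusted p = 0.192), and the difference between cell types was not tested. HYDIN with IL1RAPL2 and with KLHL31 had r = 0.764 and 0.767 in granulosa cells (adjusted p = 0.130 each by the exact permutation test), and HYDIN with EMB 0.372. Without the 2 farthest libraries these were 0.199, 0.283 and 0.824, so the first pair of relations rests on those libraries. The adjusted p was 0.0143 for HYDIN with IL1RAPL2 without contralateral library 3, and 0.0476 for HYDIN with KLHL31 without ipsilateral library 4 (exact permutation test). The library total had r between -0.180 and 0.519 with the members, none passing (smallest adjusted p = 0.406 by the exact permutation test). Taken as deviations from the side means, r in cumulus cells was -0.722 with C11H2orf40 and -0.620 with KLHL31, where the values over both sides were -0.068 and 0.0046. These r of deviations were not tested.

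Among 670 named entries, those whose deviations from the 4 group means ran most like a member over the 16 libraries were sought. The measure is Pearson's r of log2 CPM, given as a description with no p, and the points share libraries and depth. For C11H2orf40 these were the muscarinic receptor gene CHRM3 (r = 0.941), HYDIN (0.892) and the secreted-factor gene FAM19A4 (TAFA4, 0.887). CHRM3 followed it in cumulus (0.679) and granulosa libraries (0.956), whereas HYDIN had -0.189 in cumulus libraries. For IL1RAPL2 they included the collagen gene COL21A1 (0.834) and the neuromedin B gene NMB (0.821). NMB had 0.550 in cumulus and 0.845 in granulosa libraries, and COL21A1 0.102 and 0.883. For KLHL31 they were the septin gene SEPT4 (SEPTIN4, 0.883), COLQ (0.826), whose product anchors acetylcholinesterase, and KIAA1024L (0.822). SEPT4 had 0.688 in cumulus and 0.892 in granulosa libraries, COLQ 0.236 and 0.865, and KIAA1024L -0.354 and 0.861. For EMB they were CCDC173 (0.844), FAM160A1 (0.787) and XK (0.781), with r from -0.449 to -0.123 in cumulus libraries, so this likeness lies in the granulosa libraries. In mean CPM over cumulus and granulosa libraries, CHRM3 had 41.0 and 7.43, HYDIN 67.2 and 3.78, and FAM19A4 6.31 and 0.892. COL21A1 had 242 and 32.8, NMB 187 and 43.3, SEPT4 11.6 and 7.18, COLQ 10.9 and 1.84, and KIAA1024L 11.1 and 1.37. FAM160A1 also stood higher in cumulus (6.23 and 3.79), whereas CCDC173 (5.53 and 6.20) and XK (9.35 and 14.6) stood higher in granulosa libraries. The part of admixed cumulus cells in these likenesses was not tested.

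Relatives and partners of the members could be followed only where an entry has a name. Of 30 listed genes of the interleukin-1 receptor family, 2 were matched and 0 passed the filter. IL1RAPL1, the paralog of IL1RAPL2, had 4 counts over the 8 cumulus and 3 over the 8 granulosa libraries, and the cytokine gene IL36B likewise had 4 and 3. Of 9 BTB-kelch and CUL3 genes listed, 3 were matched. KLHL34 had 2 and 4 counts and KLHDC7A 4 and 125 counts in cumulus and granulosa libraries, and neither was tested. KBTBD7, a CUL3 adaptor gene, was the only one tested. In cumulus cells it stood at 26.8 ± 2.80 CPM (ipsilateral) and 28.5 ± 4.28 CPM (contralateral). In granulosa cells these means were 11.5 ± 7.01 and 10.8 ± 1.13 CPM (SD, n = 4 for each mean). By edgeR it was higher in cumulus cells, with a log2 fold change of 1.32 ± 0.22 SE and an adjusted p of 6.39e-05, where 29.9% of entries were called in this direction. Its side difference did not pass in cumulus (-0.096 ± 0.14) or granulosa cells (0.094 ± 0.38). None of 24 monocarboxylate and lactate genes, among them the transporters that EMB accompanies, and none of 15 proposed ECRG4 receptors and convertases was matched by name, so they were not analysed here.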

How the data were processed

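RNA was polyA RNA from pools of follicular cells. Purification on columns included DNase treatment, cDNA was made with SMART-Seq HT and libraries with Nextera XT, and 75 bp single-end reads were sequenced, per the labels' protocols. STAR, Trimmomatic, FastQC and DESeq2 appear, with no version, per the submitters' processing notes. For the counting program, annotation and genome build, the sources used here give nothing. The authors deposited raw counts per gene entry, with 16 library columns, each matched to its sample by title.

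From these, filterByExpr (minimum count 10, minimum total 15), TMM scaling and edgeR 4.0.16 quasi-likelihood tests (robust) with Benjamini-Hochberg adjustment over all entries tested were run in R 4.3.3, and a call was an adjusted p under 0.05. Each side difference was fitted on 8 libraries, and the other contrasts on all 16. Alternatives used DESeq2 1.42.0 and limma 3.58.1. Log2 CPM used a prior count of 2. The fits were also run on simulated counts, whose outcome is not given here. The members, lists and tests were chosen with earlier results of these data known. Named genes are the 4 members, for each the 3 named entries with the highest r (1 of them is not reported here), and listed relatives. A count of 0 allows 3 counts, or 0.137 to 0.298 CPM by depth, which covers counting error only. Names came from the files and, for LOC numbers, from the RefSeq table of ARS-UCD2.0, which gave 2474 named entries. No sequences of the members were used here.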

Additional observations from a re-analysis of the deposited data

Results flagged for a closer look

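In 2 of the 16 sets of 4 libraries (4 members in 4 groups) the highest library lay far from the other libraries of its group. About 1 in 20 such sets would be picked out by chance. EMB stood at 30.2 CPM in contralateral granulosa library 3, against 7.61 to 9.39 CPM in the other contralateral granulosa libraries. The same library held the cilium genes CFAP44 and WDR63 at 32.1 and 19.6 CPM, against at most 1.89 and 1.17 CPM in the other granulosa libraries. ARMC4, also listed for motile cilia, was at 28.4 CPM there, 10.6 to 25.9 CPM in the other granulosa and 68.7 to 115.5 CPM in cumulus libraries. HYDIN, which reached 8.73 CPM in ipsilateral granulosa library 4, was at 8.47 CPM in contralateral granulosa library 3. The oocyte gene BCL2L10 was at 5.55 CPM there and at most 1.11 CPM in the other granulosa libraries. EMB was also at 27.1 CPM in ipsilateral granulosa library 3. There CFAP44 had 0 counts, WDR63 was at 0.128, BCL2L10 at 0.0641, HYDIN at 0.770 and ARMC4 at 16.2 CPM. The part of these genes' cells in the EMB values was not tested. IL1RAPL2 stood at 88.5 CPM in contralateral cumulus library 2, against 51.6 to 57.0 CPM in the other contralateral cumulus libraries. BCL2L10 was at 9.64 CPM in that library, and at 112 CPM in contralateral cumulus library 4, where IL1RAPL2 was at 53.9 CPM.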

How the results depend on the processing

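No paired analysis was possible because the labels give no replicate numbers that groups share. The cumulus to granulosa log2 fold changes of the 4 members kept their sign under the 25 alternatives run for each, moving by less than the spread between replicates. That spread was pooled over the 4 groups, so the wide granulosa libraries make it easy to stay under. The values ran from 3.33 to 3.97 for C11H2orf40, 3.11 to 3.70 for EMB, 2.82 to 3.34 for IL1RAPL2 and 2.91 to 3.78 for KLHL31. KBTBD7 passed under all 20 run. No member passed for a side difference or for the difference of side differences under any alternative, with adjusted p values from 0.147 upward. DESeq2 called 120 entries in place of 0 for the side in cumulus cells, 1 in granulosa cells and 1 for the difference of side differences, and the cause was not tested.

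Signs turned for some values that never passed, and the cause was not tested. IL1RAPL2 in granulosa cells had -0.047 with limma-voom and -0.18 as a difference of mean log2 CPM, and C11H2orf40 had 0.53 with limma-voom for the difference of side differences. With 1 library left out, the side difference in granulosa cells ran from -1.23 to 0.090 for C11H2orf40, -0.014 to 1.07 for EMB and -0.030 to 0.79 for IL1RAPL2. The difference of side differences ran from -0.43 to 0.90 for C11H2orf40, -1.11 to -0.046 for EMB and -0.28 to 0.57 for IL1RAPL2. With library totals in place of TMM, r of EMB with IL1RAPL2 in granulosa cells was 0.025 and of the total with KLHL31 in cumulus cells -0.0085.

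With 1 library left out, r in cumulus cells ran from -0.346 to 0.440 for C11H2orf40 with EMB, -0.380 to 0.415 for EMB with IL1RAPL2, -0.564 to 0.114 for TIMP1 with EMB, -0.697 to 0.259 for TIMP1 with IL1RAPL2, -0.435 to 0.077 for the total with C11H2orf40 and -0.174 to 0.203 for the total with KLHL31. In granulosa cells it ran from -0.078 to 0.537 for C11H2orf40 with EMB, -0.362 to 0.255 for EMB with IL1RAPL2, -0.257 to 0.352 for EMB with KLHL31, 0.744 to 0.971 for C11H2orf40 with KLHL31, -0.561 to 0.073 for TIMP1 with EMB and -0.118 to 0.301 for the total with IL1RAPL2. KLHL31 rests on 10 to 129 counts per granulosa library.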

Other observations

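The members may be counted under more than 1 entry. The Ensembl entry ENSBTAG00000012637 had the same counts as C11H2orf40 in each of the 16 libraries. The entry running closest to KLHL31, ENSBTAG00000018167, had between 1 and 1.37 times its counts (r = 0.998 of log2 counts), with side differences of -0.30 in cumulus and -0.88 in granulosa cells on the log2 scale. An unnamed entry had between 0.346 and 0.483 times the counts of EMB in each library (r = 0.998), with side differences of -0.20 and 0.063. For IL1RAPL2 the closest entry had between 0.429 and 0.831 times its counts (r = 0.990), with side differences of 0.26 in cumulus and 0.49 in granulosa cells, where IL1RAPL2 had 0.52 and 0.41. These r were taken over all 16 libraries, across the cumulus to granulosa gap on which the members were picked. A high r alone therefore does not show a repeat. CHRM3, another gene, had r = 0.987 with C11H2orf40 at between 0.0279 and 0.195 times its counts. The files do not say whether the Ensembl and unnamed entries are the same genes as the members.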
